A study of Mus musculus with 40 samples.

Results

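The 7 genes of the tetrahydrobiopterin pathway, Gch1, Pts, Spr, Gchfr, Qdpr, Pcbd1 and Pcbd2, were followed by genotype and by treatment in mouse embryonic fibroblasts (MEFs) with and without Sall2. The genes were found by symbol among the 24062 genes of the count table, and all 7 were present. Gch1 was selected on its measured level in KO MEFs with doxorubicin, so its values in every comparison that holds those libraries are given as a description with no test, and the comparison of KO with WT under doxorubicin is a description for all 7 genes.

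Sall2 is a zinc finger transcription factor, and the study asked how gene expression in its knockout line depends on the genotype at Sall2 and on the strain background. MEFs are primary connective tissue cells cultured from embryos, here of 13.5 days post coitum and passage 3. They came from a mixed C57BL/6J-129P2OlaHsd stock and had the Sall2 genotype WT, Het (heterozygous) or KO, the mutation being constitutive and made in embryonic stem cells of the 129P2 strain. They were left untreated (control) or received 1 μM doxorubicin, a topoisomerase poison that breaks DNA, for 16 h. There was 1 WT and 1 Het culture in each treatment, 3 KO cultures as control and 2 distinct KO libraries with doxorubicin, since the libraries labelled KO 2 and KO 3 with doxorubicin were identical over all 24062 genes and entered as 1 library, embryo 2. With 1 WT library per treatment, the spread behind each comparison of genotypes came from the KO libraries. By counts of Y-linked genes and of Xist, the WT, Het and KO 2 cultures read as female and KO 1 and KO 3 as male. The comparisons of genotypes thus set a female WT culture against KO cultures of mixed sex. KO cells carry a 129P2 stretch of chromosome 14 around Sall2, the study places Gch1 in it, and the 2 genes lie 5.16 Mb apart, so the loss of Sall2 and the 129P2 allele of Gch1 cannot be told apart in these groups. Beyond these libraries, the study reported Gch1 among the KO to WT differences that it saw again by quantitative PCR. It also reported Gch1 as affected when Sall2 was silenced by short hairpin RNA in WT MEFs, with a fold change unlike that of its sequencing. Both of those results came from immortalized MEFs, not from primary MEFs as here.

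Tetrahydrobiopterin is the cofactor of the nitric oxide synthases, of the aromatic amino acid hydroxylases that lead to dopamine and serotonin, and of an ether lipid oxygenase. It is built from GTP in order by GTP cyclohydrolase (Gch1), 6-pyruvoyltetrahydropterin synthase (Pts) and sepiapterin reductase (Spr), and the first enzyme is held back or stimulated by the GTP cyclohydrolase feedback regulator (Gchfr). Used cofactor is restored by the pterin dehydratases Pcbd1 and Pcbd2 and by dihydropteridine reductase (Qdpr), and Gch1 is known as a cytokine-inducible gene in fibroblasts and macrophages.

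Values are counts scaled to a common library total (CPM), with the scale between libraries set by the trimmed mean of M-values (TMM), and the library totals lay between 15560728 and 24122414 counts. Intervals of single libraries are Wilson intervals at 95% and cover counting error only. Sall2 itself was read at 37.6 CPM in the WT control, 24.0 in the Het control and 19.0 to 24.2 in the KO controls, and at 9.35, 7.94 and 3.72 to 4.23 CPM in the same order with doxorubicin. The KO libraries with doxorubicin were thus the lowest of that treatment, while as controls KO embryo 2 was level with Het and no KO library was at 0, and counts over the whole gene do not show which exons were read. Fibroblast markers were abundant, with 8 genes (Col1a1, Vim and others) summing to between 10250.5 and 51194 CPM. A pair of control libraries, Het and KO embryo 3, stood apart from the other 3 controls: 14 interferon-stimulated genes summed to 2669 and 2969 CPM there against 104 to 121 CPM, fibroblast markers to 11496.5 and 10250.5 against 43309 to 51194 CPM, and 7 macrophage markers to 486 and 376 against 105 to 182 CPM. The Het doxorubicin library was like them, with 1639.7, 12674 and 499.9 CPM for the same 3 lists. Most of the macrophage sum was Lyz2, at 336 CPM in the Het control and 288 in KO embryo 3 against 51.8 to 95.2 in the other controls. Ptprc, Cd14 and Cd68 were also higher in that pair, but Mrc1 was lower, at 0.287 and 0.269 against 4.27 to 9.06 CPM. Csf1r and C1qa did not separate the pair from the other controls. In bulk RNA, fewer cells of a type and less RNA per cell cannot be told apart. Of 10 p53 target genes, 1 rose with doxorubicin over all genotypes (Pmaip1) and 1 fell (Phlda3), with a median log2 change of -0.25 against 0.02 over all genes tested, where 40.6% of the genes were called, 21.9% higher and 18.7% lower.

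The promoters of Gch1, Spr and Gchfr are shown because Gch1 is the gene that the comparison of genotypes turns on and Spr and Gchfr were the pathway genes that rose with doxorubicin. All 7 genes matched the RefSeq promoter table of GRCm38.p6, and the letters run up to the first transcribed base on the strand of the gene, with exonic bases left out. Capitals mark the GC box GGGCGG, the CCAAT box and the core TGACG of a cyclic AMP response element, each searched on both strands. The windows are chr14:47189414-47189663 (minus strand, 250 bases before Gch1), chr6:85137767-85138014 (minus strand, 248 bases before Spr) and chr2:119167538-119167772 (plus strand, 235 bases before Gchfr).
Gch1: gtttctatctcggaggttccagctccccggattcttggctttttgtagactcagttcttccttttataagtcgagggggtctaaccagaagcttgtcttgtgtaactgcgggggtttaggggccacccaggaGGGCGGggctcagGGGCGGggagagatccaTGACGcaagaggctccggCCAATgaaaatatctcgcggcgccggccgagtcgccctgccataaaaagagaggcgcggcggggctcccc
Spr: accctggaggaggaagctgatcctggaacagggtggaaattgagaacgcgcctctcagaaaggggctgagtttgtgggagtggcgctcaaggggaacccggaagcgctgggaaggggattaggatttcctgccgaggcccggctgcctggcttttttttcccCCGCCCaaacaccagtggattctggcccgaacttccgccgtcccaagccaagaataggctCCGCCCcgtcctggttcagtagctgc
Gchfr: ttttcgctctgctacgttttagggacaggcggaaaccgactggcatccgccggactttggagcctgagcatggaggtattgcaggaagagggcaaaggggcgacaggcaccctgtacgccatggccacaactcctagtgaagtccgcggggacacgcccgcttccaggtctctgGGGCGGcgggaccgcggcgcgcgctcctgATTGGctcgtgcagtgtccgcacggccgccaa

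In the 250 bases before the RefSeq start, Gch1 held 2 GC boxes, 1 core of the cyclic AMP response element and 1 CCAAT box, all on the strand of the gene and between 118 and 66 bases before the start. Spr held 2 GC boxes on the other strand, and Gchfr held 2 GC boxes, 1 of them in the exonic bases not printed, and 1 CCAAT box. The windows of Pts and Qdpr held 1 GC box each, that of Qdpr 2 CCAAT boxes and that of Pcbd2 1 core of the cyclic AMP response element. Over all 32851 promoters of the table, 32.7% held a GC box, 33.8% a CCAAT box and 17.8% the TGACG core. Letters of an interferon response element (GAAA, any 2 bases and GAAA, in 2.98% of promoters) and of a GAS element (TTCNNNGAA, in 7.02%) were in none of the windows of the 7 genes. These matches describe letters in a window of the reference genome and do not show binding. The letters before Gch1 in KO cells may differ.

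Gch1, on chromosome 14 (47153895 to 47189413, minus strand), encodes the enzyme that commits GTP to the pathway. In control cells it was at 2.69 CPM in WT (interval 2.06 to 3.51, 54 counts) and at 10.1 in Het, while the KO cultures read 3.70 (embryo 1), 2.58 (embryo 2) and 10.0 (embryo 3). The WT culture lay among the KO cultures, while Het and KO embryo 3, the libraries with high interferon-stimulated genes, were the highest. With doxorubicin Gch1 was at 5.57 CPM in WT (4.63 to 6.70, 112 counts) and 32.1 for Het (29.7 to 34.6, 662 counts), with the KO libraries at 51.2 and 51.6 (921 and 1124 counts), a mean of 51.4 ± 0.257 CPM (SD, n = 2) that was 9.20-fold and 9.26-fold the WT level in the single libraries.

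Under doxorubicin the single WT library was lowest, the single Het library between and the KO libraries highest. The Het culture was also the one with high interferon-stimulated genes, at 1639.7 CPM against 442 in WT and 518 and 549 in KO. Its Gch1 was already 3.75-fold the WT level without the drug. The part of that state in the order was not tested. Counting intervals cover neither the spread between cultures nor the choice of Gch1 on these values, and with 1 WT and 1 Het culture the order of genotypes was not tested. In the order of all 9 libraries, 5 pairs of neighbours had overlapping counting intervals: KO embryo 2 control with WT control, WT control with KO embryo 1 control, KO embryo 1 control with WT doxorubicin, KO embryo 3 control with Het control, and the KO libraries with doxorubicin. The other 3 steps, from WT doxorubicin to KO embryo 3 control, from Het control to Het doxorubicin and from there to KO doxorubicin, had intervals that did not overlap. Overlap does not show equal levels. The intervals of KO embryo 1 control (2.94 to 4.66 CPM) and WT doxorubicin (4.63 to 6.70 CPM) barely met.

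The plot of levels by library shows each gene on its own scale.

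**Figure D1:**
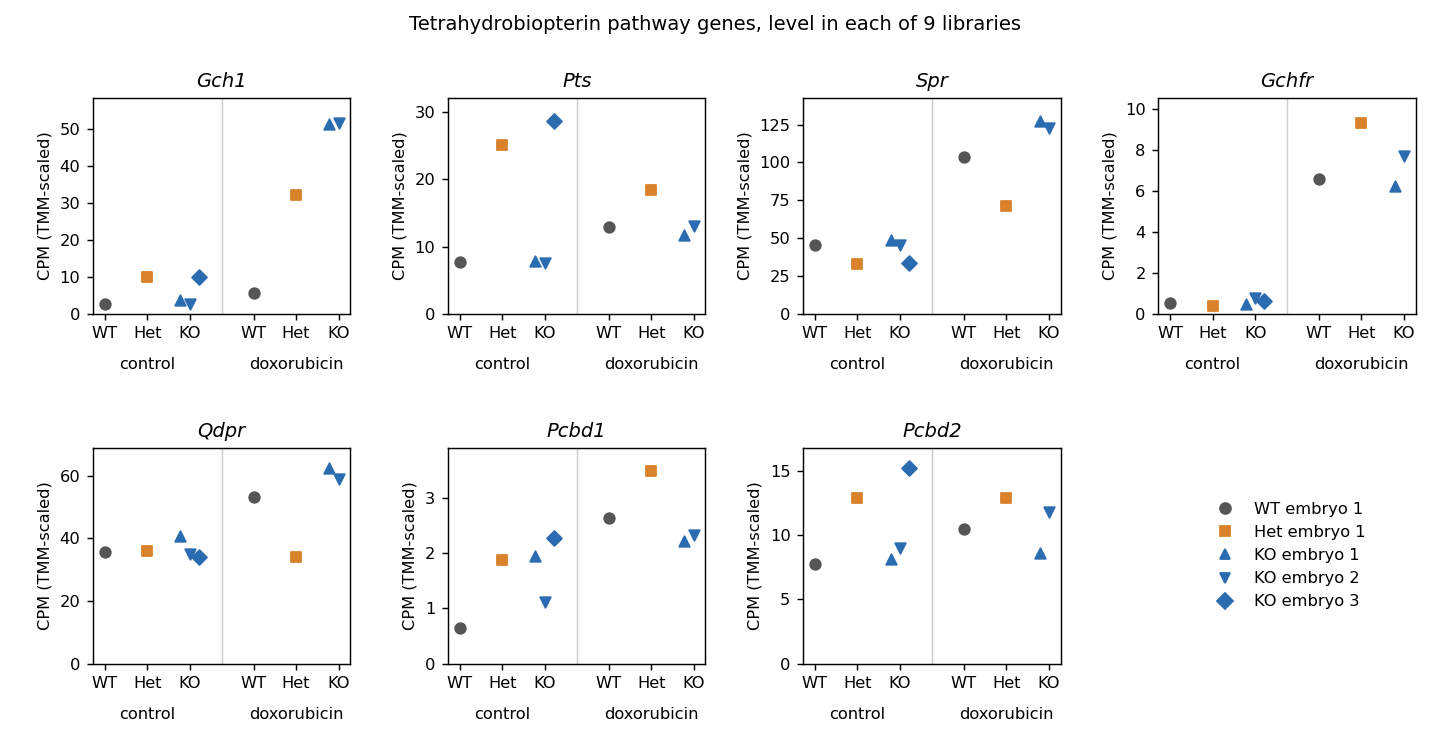
CPM (TMM-scaled, axis from 0) of the 7 tetrahydrobiopterin pathway genes in each of 9 distinct libraries, grouped by genotype and treatment; each point is 1 library, coloured by genotype and shaped by embryo. Gch1 with doxorubicin runs from 5.57 CPM in WT over 32.1 in Het to 51.2 and 51.6 in KO, while Spr and Gchfr rise with doxorubicin at every genotype.

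Within an embryo, Gch1 was 2.07-fold higher with doxorubicin than without for WT and 3.18-fold for Het, against 13.9-fold and 19.99-fold for the first and second KO embryo. Both KO embryos thus moved more than WT and Het, and all 4 embryos moved up. In the fit with all genotypes the log2 change of Gch1 was 2.44 (SE 0.495, 5 control and 4 doxorubicin libraries), and within KO it was 3.24 (SE 0.597). The control library of KO embryo 3, with its Gch1 at 10.0 CPM, entered the last value, and without it the log2 change within KO was 4.04. The difference between the KO and the WT response was 2.19 on the log2 scale (SE 1.10), or 2.98 with the embryo as block.

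In the comparison that chose it, KO against WT with doxorubicin, Gch1 had a log2 difference of 3.20 (SE 0.249). Of the 15256 genes tested there, 30 (0.197%) were called in either direction at a false discovery rate (FDR) under 0.01, and 0 in a single fit of all 9 libraries, with 26 at an unadjusted p under 0.05 in edgeR. The other 6 pathway genes had log2 differences between -0.21 (Pcbd1) and 0.27 (Spr).

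Without the drug, none of the 7 genes passed the test between KO and WT. The study, with another normalization and test, counted Gch1 among the genes that differed there. KO against WT gave log2 differences of 1.05 for Gch1 (SE 0.984), 0.97 for Pts (SE 0.994), 1.49 for Pcbd1 (SE 0.877), 0.50 for Pcbd2, 0.21 for Gchfr, 0.07 for Qdpr and -0.06 for Spr. For all 7 the adjusted p was 1.00 in the quasi-likelihood test of edgeR, and 0% of the 14470 genes tested were called, with 10 genes at an unadjusted p under 0.05. DESeq2 called 0 genes as well, with 94 at an unadjusted p under 0.05. These numbers are far below what such a p gives when nothing differs. The tests were thus conservative, and the lack of a call does not show equal levels. The Gch1 difference rested on KO embryo 3: without that library it was 0.24, against 1.27 without embryo 1 and 1.39 without embryo 2, and its adjusted p lay between 0.585 and 1 over 11 settings. With library sizes in place of TMM the median of all genes moved by 0.17 in this comparison and by -0.16 in the difference of responses, and Spr then lay at 0.07.

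Pts, on chromosome 9, makes the second step. It was at 7.72 CPM in WT, 7.86 in KO embryo 1 and 7.58 in KO embryo 2 as controls, against 25.1 in Het and 28.7 in KO embryo 3. With doxorubicin WT and KO embryo 2 were level, at 12.98 and 13.04 CPM, with Het at 18.5 and KO embryo 1 at 11.7. Its control levels fell into a low set of 3 and a high set made of Het and KO embryo 3, and the doxorubicin libraries lay between these sets.

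The ratio of doxorubicin to control for Pts was 1.68 in WT, 1.49 and 1.72 in the paired KO embryos, and below 1 in Het, at 0.736. The fit within KO gave a log2 change of -0.24 (SE 0.664, adjusted p = 0.802, edgeR) and the fit over all genotypes -0.07 (SE 0.431, adjusted p = 0.900, edgeR). Both values turned with the libraries of high interferon-stimulated genes: within KO, the embryo as block gave 0.71 (SE 0.168, adjusted p = 6.2e-04, edgeR), a fit in which KO embryo 3 has no partner, leaving out that embryo gave 0.70 (adjusted p = 0.0122), and over all genotypes the block gave 0.40 (adjusted p = 0.135). With the Het libraries and KO embryo 3 left out, a choice made after the data were seen, the value over the remaining genotypes was 0.70 (adjusted p = 9.6e-04), and over 14 settings the adjusted p lay between 9.6e-04 and 0.990.

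Pts ran with the summed level of the 14 interferon-stimulated genes across the 9 libraries, whereas Gch1 did so among the 5 controls. The sum was 104, 121 and 111 CPM in the WT and the first and second KO controls, 2669 in Het, 2969 in KO embryo 3, and with doxorubicin 442 (WT), 1639.7 (Het), 518 and 549 (KO). Pts was higher where the sum was higher, apart from small reversals among neighbouring libraries, whereas the KO libraries with doxorubicin held more Gch1 than Het or KO embryo 3 at a lower interferon level. Between WT and KO with doxorubicin the 14 genes had a median log2 difference of 0.29 against 3.20 for Gch1. The part of the interferon-stimulated state in the level of Gch1 or Pts was not tested.

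**Figure D2:**
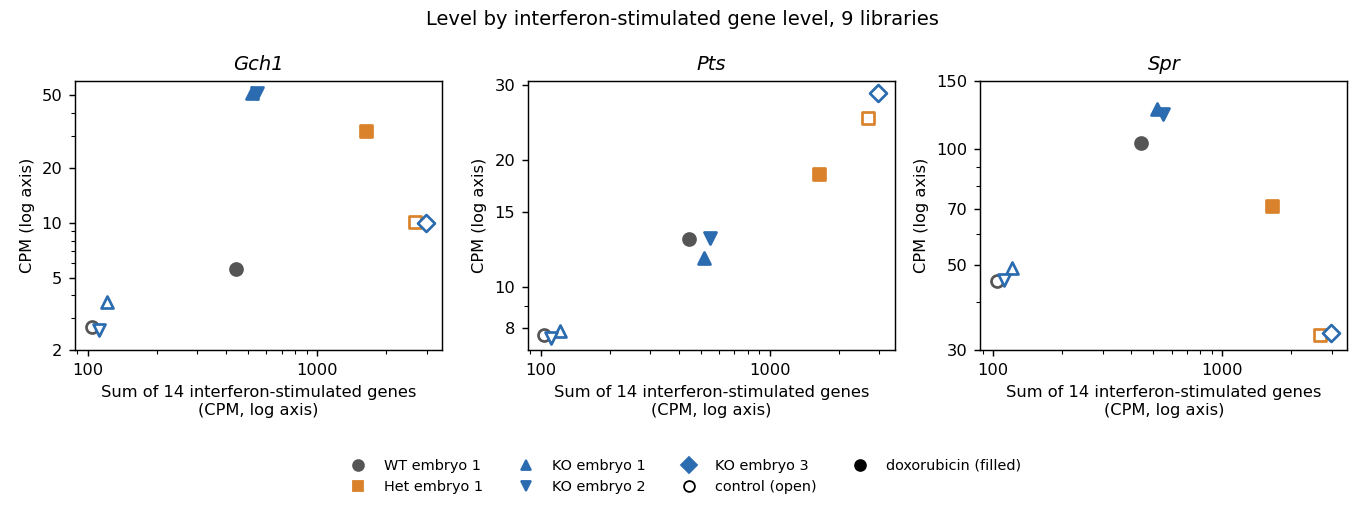
CPM of Gch1, Pts and Spr (log axes) against the summed CPM of 14 interferon-stimulated genes in 9 libraries; open points are control and filled points doxorubicin, coloured by genotype. Pts runs from 7.58 CPM at the low end to 28.7 CPM in the library with 2969 CPM of interferon-stimulated genes, while Gch1 is highest, at 51.2 and 51.6 CPM, in KO libraries at 518 and 549 CPM.

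Spr, on chromosome 6, completes the cofactor. Its control levels were 45.3 CPM (WT), 33.0 (Het), 49.1, 45.7 and 33.4 (KO). With doxorubicin they were 103.6 CPM (WT), 71.0 (Het), 127.3 (KO embryo 1) and 122.9 (KO embryo 2), so no doxorubicin library overlapped a control. The mean in KO was 42.7 ± 8.27 CPM (SD, n = 3) as control and 125 ± 3.10 CPM (SD, n = 2) with doxorubicin.

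Spr rose with the drug within KO by a log2 change of 1.57 (SE 0.223, adjusted p = 0.0063, edgeR) and over all genotypes by 1.37 (SE 0.162, adjusted p = 1.8e-04). The change was seen in 4 of 4 embryos, between 2.15-fold in Het and 2.69-fold in KO embryo 2. Within KO the call was lost without embryo 1 (adjusted p = 0.153) or without embryo 2 (0.234), which leave 1 doxorubicin library whose spread is taken from the others, with log2 changes of 1.66 and 1.59. Its response in KO and in WT differed by 0.35 on the log2 scale (SE 0.436), with an adjusted p of 1.00.

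Gchfr, on chromosome 2, encodes the protein that binds GTP cyclohydrolase and relays feedback from the cofactor. It was near the floor in control cells, at 0.548 CPM for WT (11 counts), 0.369 for Het (9 counts) and 0.462, 0.786 and 0.628 for KO (9, 14 and 14 counts). Doxorubicin brought 6.57 CPM in WT (132 counts), 9.30 in Het (192 counts) and, among KO, 6.23 and 7.71 (112 and 168 counts). All doxorubicin libraries lay above all controls, and Het was the highest of them.

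Gchfr rose by a log2 change of 3.49 within KO (SE 0.406, adjusted p = 0.0041, edgeR) and of 3.74 over all genotypes (SE 0.317, adjusted p = 4.2e-05), the steepest change of the 7 genes in that fit. The ratio of doxorubicin to control was 11.99 for WT and 25.2 for Het, against 13.5 and 9.81 for the paired KO embryos. The call within KO was lost without embryo 1 (adjusted p = 0.0604) or embryo 2 (0.149), while the call over all genotypes held in 14 of 14 settings, with an adjusted p of at most 0.0019. KO and WT differed by 0.08 with doxorubicin (log2, SE 0.300), and their responses differed by -0.10 (SE 0.739, adjusted p = 1.00).

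Per length of exons the regulator and its enzyme can be set side by side, though roughly, since the counts and the exon lengths come from different annotations. As CPM per kilobase of exon (RPKM), Gchfr with doxorubicin was at 10.2 (WT), 14.4 (Het), 9.66 and 11.96 (KO), and Gch1 at 0.891, 5.13, 8.20 and 8.26. The RPKM ratio of Gchfr to Gch1 was therefore 11.4 for WT, 2.81 for Het and, with KO, 1.18 and 1.45. Control values were 1.97 (WT), 0.355 (Het) and 1.21, 2.95 and 0.608 (KO), with 9 to 14 counts of Gchfr behind each value.

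Over the other enzymes, RPKM in controls was highest for Qdpr (19.0 to 22.8) and Pcbd2 (14.2 to 27.8), followed by Spr (9.30 to 13.8), and was lower for Pts (1.24 to 4.70), Pcbd1 (0.792 to 2.80) and Gch1 (0.413 to 1.61). Among the 3 enzymes that build the cofactor, Gch1 was the lowest in each control library and in WT with doxorubicin. In the Het and KO libraries with doxorubicin it lay above Pts, at 5.13 to 8.26 against 1.92 to 3.02 RPKM, and below Spr, at 20.03 to 35.9. The exon union of Pts holds 6101 bases, most of its gene (50521617 to 50528724), so its RPKM may be too low. Ranks between genes are uncertain to that extent.

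Qdpr, on chromosome 5, reduces the quinonoid form back to the cofactor. Its levels in control were 35.5 CPM (WT), 36.0 (Het), 40.8, 34.8 and 33.9 (KO). With doxorubicin they were 53.3 CPM (WT), 33.9 (Het), 62.4 and 58.9 (KO). WT and both KO libraries lay above all controls, and Het lay at the level of the lowest control. The log2 change was 0.75 within KO (SE 0.182, adjusted p = 0.0261, edgeR) and 0.52 over all genotypes (SE 0.167, adjusted p = 0.0268), both short of the threshold of 0.01. With the embryo as block the value within KO passed it, at 0.72 (SE 0.123, adjusted p = 1.9e-05), and over all genotypes it passed without Het, at 0.70 (adjusted p = 0.0051). DESeq2 called Qdpr in both comparisons (adjusted p = 0.0090 and 0.0029). Exons of Qdpr overlap an antisense gene, as do those of Pcbd2, and the strand setting of the counts is not stated, so both are uncertain to that extent.

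Pcbd1 and Pcbd2, paralogs on chromosomes 10 and 13, remove water from the hydroxylated cofactor. Pcbd1 was low, from 0.647 CPM in WT control (13 counts) to 3.49 in Het with doxorubicin (72 counts), and its groups overlapped. Its log2 change over all genotypes was 0.83 (SE 0.378, adjusted p = 0.0921, edgeR). Pcbd2 lay between 7.77 and 15.2 CPM in the 5 controls and between 8.62 and 12.9 CPM with doxorubicin, with Het and KO embryo 3 highest among the controls, as for Pts. Its change over all genotypes was 0.05 (SE 0.246, adjusted p = 0.868).

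Counted together, 2 of the 6 genes other than Gch1 rose with doxorubicin within KO, Gchfr and Spr, and none fell, where 12.8% of the 14904 genes tested were called, 8.06% higher and 4.76% lower. With the embryo as block 4 of the 6 rose, Gchfr, Spr, Qdpr and Pts, where 67.5% of the genes tested were called and 35.5% were called higher. Over all genotypes the same 2 rose and none fell, where 40.6% of 16656 genes were called, 21.9% higher and 18.7% lower. These comparisons share the KO libraries. The median log2 change of the 6 genes was 0.56 within KO and 0.67 over all genotypes, against -0.03 and 0.02 over all genes tested.

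**Figure D3:**
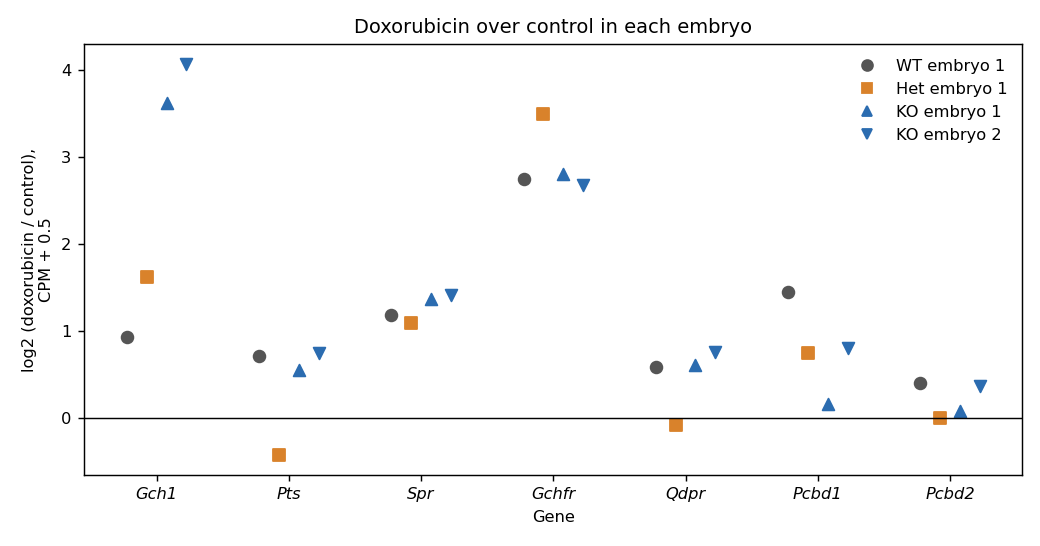
Ratio of doxorubicin to control on the log2 scale (CPM + 0.5) for each of 7 genes in the 4 embryos measured in both treatments; each point is 1 embryo, coloured by genotype. Gch1 is at 0.93 (WT), 1.62 (Het), 3.62 (KO embryo 1) and 4.08 (KO embryo 2), whereas Spr is at 1.18 in WT and at 1.37 and 1.42 in KO.

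Whether the drug response differed between KO and WT was tested on the product of genotype and treatment. Of 15905 genes 0% were called, with 41 at an unadjusted p under 0.05 in edgeR, and DESeq2 called 0 as well, with 24 at an unadjusted p under 0.05. With the embryo as block 8 genes were called. For the 6 genes other than Gch1 the difference of responses lay between -1.67 (Pcbd1, SE 0.897) and 0.35 (Spr), each with an adjusted p of 1.00. With 2 WT and 5 KO libraries the standard errors of this difference ran from 0.354 for Qdpr to 1.20 for Pts. The numbers at an unadjusted p under 0.05 were again far below those of no difference, so the lack of a call does not show equal responses.

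Most of the genes whose enzymes use the cofactor were scarce in these fibroblasts. The tyrosine hydroxylase gene Th had at most 2 counts in a library, Nos1 at most 6 and Agmo at most 13, and Tph2 at most 21. Nos2, the inducible nitric oxide synthase, had 0 counts in the WT control, which allows up to 3 counts (0.124 CPM of the plain library total), and 0 counts in KO embryos 1 and 2, against 121 counts (4.96 CPM) in Het and 136 (6.10 CPM) in KO embryo 3. The doxorubicin libraries held 17 (WT), 167 (Het) and 26 and 20 (KO) counts of it. High Nos2 thus marked the Het libraries and KO embryo 3 and did not follow the KO level of Gch1.

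Of the 5 of these genes that could be tested over all genotypes, Nos3, the endothelial nitric oxide synthase, rose by a log2 change of 2.30 (SE 0.415, adjusted p = 0.0017, edgeR), from 2 to 7 counts in controls to 9 to 29 counts with doxorubicin. The sum of 5 endothelial markers, Emcn among them, went from between 17.6 and 46.8 CPM to between 35.6 and 90.7 CPM, and its part in the Nos3 result was not tested. The other 4 did not pass, with log2 changes of -0.26 for Tph1, 0.31 for Nos2, 0.77 for Tph2 and 0.86 for Agmo. Within KO neither of the genes tested, Nos2 (-0.80) and Tph1 (-0.18), passed. Tph1 was highest in KO embryo 1, at 4.57 CPM as control and 3.12 with doxorubicin, against 0.872 to 1.52 CPM in the other libraries.

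Among the side reductases, Cbr3, a carbonyl reductase, went from between 6.12 and 13.2 CPM to between 21.9 and 29.7 CPM, a log2 change of 1.56 over all genotypes (SE 0.240, adjusted p = 7.1e-04, edgeR), with no overlap. Cbr1, its neighbour on chromosome 16, had a log2 change of 0.35 (SE 0.258, adjusted p = 0.278), with Het and KO embryo 3 again highest among controls at 33.1 and 38.7 CPM. Within KO neither passed, with log2 changes of 1.68 for Cbr3 (SE 0.353, adjusted p = 0.0167, edgeR) and 0.51 for Cbr1 (SE 0.394, adjusted p = 0.355, edgeR). Akr1b3 had at most 1 count and was not tested.

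Across the 9 libraries, the genes whose log2 CPM ran most like that of Gch1 among 13863 genes were Apol8 (Pearson r = 0.967), Nkiras1 (0.948), Tssk6 (0.941), Sh3glb2 (0.925) and Sfxn2 (0.921). Apol8, of the apolipoprotein L family, was low throughout, at 0.505 to 1.75 CPM in controls and at 1.79 (WT), 3.54 (Het) and 3.73 and 4.22 (KO) with doxorubicin. The pathway genes had lower values, with r = 0.732 for Gchfr, 0.662 for Pcbd1, 0.629 for Spr, 0.548 for Qdpr, 0.429 for Pts and 0.409 for Pcbd2. These correlations describe the libraries at hand, which share treatment, genotype and the interferon-stimulated state.

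The 5 nearest genes of the table on each side of Gch1 share its stretch of chromosome 14. With doxorubicin, Wdhd1, a replication factor and the next gene on one side, read 12.3 CPM for WT, 13.7 for Het and 20.9 and 22.7 for KO, or log2 ratios of 0.74 and 0.86 to WT. It was not among the 30 genes called. Samd4, on the other side, was lower in KO than in WT in both treatments, at 203 CPM in the WT control against 134 to 143 in KO, and at 18.8 against 13.2 and 15.5 CPM with doxorubicin, and was not called in either comparison. The other genes read there had log2 ratios between -0.49 (Samd4) and 0.10 (Socs4) in the KO libraries, and the microRNA gene Mir378c had 0 counts in every library. Without the drug the KO ratios of Wdhd1 were 0.33, 0.22 and -0.50 (embryos 1 to 3), and KO embryo 3 also lay below WT for Lgals3 (-0.77), Mapk1ip1l (-1.14) and Dlgap5 (-1.20).

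**Figure D4:**
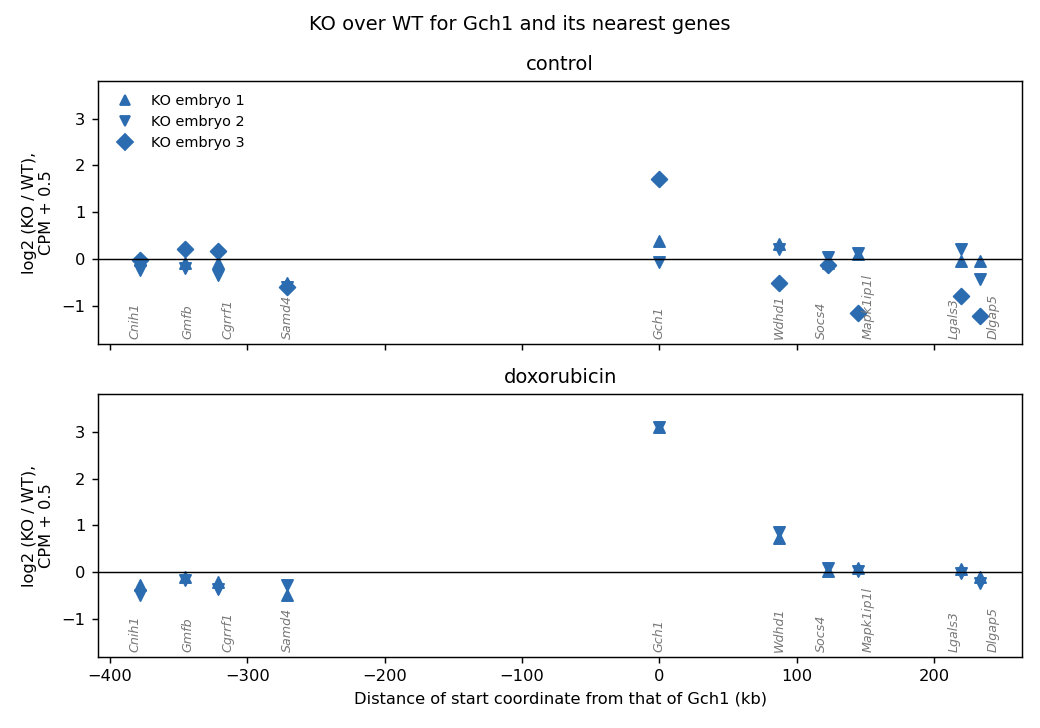
Log2 ratio of KO to WT (CPM + 0.5) for Gch1 and the nearest genes of the count table (Mir378c, with no counts, left out), placed by the distance of their start coordinates from that of Gch1 in kilobases; each point is 1 KO embryo, in control (top) and doxorubicin (bottom). With doxorubicin Gch1 stands at 3.09 and 3.10 and Wdhd1 at 0.74 and 0.86, while the other genes lie between -0.49 and 0.10.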

How the data were processed

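RNA depleted of rRNA from MEFs was sequenced by the study in 4 runs per culture. The authors merged the FASTQ files of a sample, used HISAT2 for alignment to mm10 and Picard for sorting, and took counts from HTSeq (union mode, iGenomes annotation); the strand setting is not stated, although the kit was stranded. The deposited table holds raw counts for 24062 genes in 10 libraries, with no filter or normalization, and totals of 15560728 to 24122414 counts limit the precision. RUVg and edgeRun were applied by the authors after this table.

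Columns were matched to genotype, treatment and culture number by the labels. Counts were tested with the quasi-likelihood test of edgeR 4.0.16 (R 4.3.3, limma 3.58.1) after TMM scaling and filterByExpr, two-sided, with Benjamini-Hochberg adjustment over all genes tested and an FDR under 0.01; all 7 genes passed the filter in each comparison, in part through their high groups. Alternatives were DESeq2 1.42.0, library sizes, no filter beyond 1 count, Rn45s left out, an FDR under 0.05, each culture left out, a single fit, RUVg with 1 factor followed by the exact test, and the embryo as replicate block. The SE given with a log2 change of edgeR is its absolute value divided by the square root of the F statistic of the quasi-likelihood test. It was not estimated apart from that test, and for Gch1 it is part of the description. Log2 ratios of single libraries used a prior of 0.5 CPM. RPKM used the union of exons in the GENCODE annotation of GRCm38, whereas the counts came from the iGenomes annotation. Cells with both treatments share a culture number, taken as the embryo. The difference of KO 1 and KO 2 in control and in doxorubicin had r = 0.452 over 16656 genes. With KO 3 in place of KO 2 as the control, r was 0.236, and both values share the libraries of KO 1. Y-linked counts were 3806 and 1551 in KO 1, 1 and 0 in KO 2, and 6397 in the KO 3 control, against 0 in the library labelled both KO 2 and KO 3 with doxorubicin. Nothing beyond the culture number says that replicates were independent, so p-values measure the spread between these cultures.

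The 7 genes and the gene lists (cofactor users, side reductases, interferon-stimulated, inflammatory and p53 target genes, and markers of fibroblasts, macrophages, endothelium, glia and amine neurons) were chosen with earlier results of these data known, and some members of the lists are not reported here. Genes were named by rule: the 7 genes, list members past the threshold, the 5 genes most correlated with Gch1 whose mean was 1 CPM or more, and the 5 nearest on each side; other genes named were chosen after their values were seen. The fits were tested on simulated data.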

Additional observations from a re-analysis of the deposited data

Results flagged for a closer look

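Within an embryo, 3 of the 7 genes had a change of opposite sign in Het to both WT and KO, but only that of Pts was wider than counting error. The Het intervals, control then doxorubicin, were 23.2 to 27.1 and 16.7 to 20.4 CPM for Pts. They overlapped for Qdpr (33.7 to 38.5 and 31.5 to 36.5 CPM) and Pcbd2 (11.6 to 14.4 and 11.4 to 14.5 CPM). Pts changed by a log2 ratio of doxorubicin to control of -0.43 in Het against 0.71 in WT and 0.55 and 0.75 in KO. Qdpr changed by -0.087 in Het against 0.58 in WT and 0.61 and 0.75 in KO. Pcbd2 changed by -0.0019 in Het, from 315 to 266 counts and from 12.9 to 12.9 CPM, against 0.40 in WT and 0.08 and 0.37 in KO. The Het control held 2669 CPM of interferon-stimulated genes and the Het doxorubicin library 1639.7 CPM, while in WT and the paired KO embryos the sum went from between 104 and 121 to between 442 and 549 CPM. With 1 Het and 1 WT embryo these differences were not tested.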

How the results depend on the processing

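Among values of single genes, 324 alternatives kept direction and side of the threshold, 20 turned sign (Pts newly passing in the 2 settings given in the report), 8 newly passed with the same sign, 4 lost the threshold and 5 with no test moved by more than the replicate spread. Counts of genes called moved most. KO against WT in control gave 0 to 47 without 1 KO culture (47 without KO 1, 41 without KO 2) and 55 with RUVg, against 0. KO against WT with doxorubicin gave 46 at an FDR under 0.05, 5 with DESeq2, 16 with library sizes, 0 in the single fit of 9 libraries and 2432 with RUVg, which leaves no residual degrees of freedom, against 30. Doxorubicin within KO gave 5130 at an FDR under 0.05, 4555 with DESeq2, 1045 with library sizes, 392 to 8126 without 1 culture (392 without KO 2, 538 without KO 1, 8126 without KO 3) and 10055 with the embryo as replicate block, against 1911. Over all genotypes it gave 2916 (without KO 2; 3499 without KO 1, 4463 without WT) to 9770 (without KO 3) and 10281 without Het and KO 3, against 6760. The difference of responses gave 0 to 13 without 1 culture (13 without KO 1 or KO 2), 8 with the replicate block and 2 with the shared library taken as embryo 3, against 0. The block changed no other call of the 6 genes tested than those of Pts and Qdpr within KO. With library sizes Gch1 was at 12.6 CPM in Het control, 42.5 in Het doxorubicin, 47.2 and 52.0 in KO doxorubicin, and with DESeq2 size factors 52.6 in KO 2 doxorubicin.

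Leaving out 1 culture gave -0.014 to 0.11 for Qdpr and -0.17 to 0.081 for Spr (KO against WT, control), -0.088 to 0.23 for Gchfr, -0.29 to 0.17 for Pcbd2 and -0.16 to 0.0056 for Pts (KO against WT, doxorubicin), -0.47 to 0.27 for Pcbd2 and -0.68 to 0.70 for Pts (doxorubicin within KO), and -0.055 to 0.23 for Pcbd2 and -0.31 to 0.41 for Pts (all genotypes). Library sizes gave 0.070 for Spr in control, 0.011 for Pcbd2 (KO against WT, doxorubicin) and -0.0071 for Qdpr (difference of responses), and RUVg 0.0040 for Spr in control. The replicate block gave 0.28 for Pcbd2 and 0.71 for Pts within KO, 0.40 for Pts over all genotypes, and, with the shared library as embryo 3, 0.097 for Gchfr (difference of responses). Leaving out Het and KO 3 gave 0.70 for Pts. The cause was not tested. KO against WT under doxorubicin has no residual degrees of freedom without 1 KO library and was given as values only. The settings with the shared library as embryo 3 and without Het and KO 3 were chosen after seeing the data. A single WT and a single Het library per treatment, and 9 to 14 counts of Gchfr in controls, limit the precision.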

Other observations

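Calls in the other lists are from the fit over all genotypes, where 40.6% of the 16656 genes tested were called, and no list was tested against the other genes. Icam1, an adhesion molecule, rose by a log2 change of 3.69 (SE 0.299, adjusted p = 3.4e-05, edgeR), the only one called of 10 inflammatory genes, whose median was -0.54 against 0.02 over all genes tested. The Het and KO embryo 3 controls, at median log2 ratios of 2.82 and 3.08 to the WT control for these 10 genes, entered that median. Foxd3, a neural crest factor, rose by 3.82 (SE 0.454, adjusted p = 1.9e-04), from between 0.149 and 1.88 CPM to between 8.03 and 17.6 CPM, while Sox10 fell by 2.28 on the log2 scale (SE 0.373, adjusted p = 0.0010) in the same list of 5 glial and neural crest genes. Cd68 rose by 1.10 and Csf1r fell by 1.14 among 7 macrophage markers, Pdgfrb fell by 2.83 among 8 fibroblast markers, and Emcn rose by 0.70 among 5 endothelial markers. Emcn was also lower in KO than in WT with doxorubicin, by a log2 difference of -1.93.

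Slc6a3, the dopamine transporter, was called higher among the 4 amine neuron genes tested, with 0 to 4 counts in controls and 14 to 25 counts with doxorubicin. Of the 14 interferon-stimulated genes none passed, with the lowest unadjusted p at 0.088 for Irf1 and a median log2 change of -0.63. The high Het and KO embryo 3 controls entered that median. Within an embryo the sum rose from 104 to 442 CPM in WT, 121 to 518 in KO embryo 1 and 111 to 549 in KO embryo 2. In Het it fell from 2669 to 1639.7 CPM.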
